A study of Mus musculus with 19 samples.

Results

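The AP-1 transcription factors were followed here through 9 genes, the rows of the count table whose symbol was Fos, Fosb, Fosl2, Jun, Junb, Jund, Atf3, Maff or Batf. These 9 rows stood among 38887 genes in the table, and all 9 passed the expression filter that left 12943 genes for testing. RNA sequencing had been done on splenic myeloid-derived suppressor cells (MDSC), immature myeloid cells that restrain T cell responses, in a granulocytic form (PMN-MDSC) and a monocytic form (M-MDSC). Mice were newborns of 7 days or adults of 6 to 8 weeks, with no further treatment, genotype or strain in the labels. The 4 groups were adult PMN-MDSC (6 libraries), newborn PMN-MDSC (5), adult M-MDSC (3) and newborn M-MDSC (5). PMN-MDSC were taken as CD11b+ Ly6Cint Ly6G+ cells and M-MDSC as CD11b+ Ly6Chigh Ly6G- cells. One protocol text gives Ly6G beads for PMN-MDSC and a cell sorter for M-MDSC, while the other gives a CD11b bead step followed by sorting for both, so cell type and way of isolation cannot be told apart.

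AP-1 is a pair of basic leucine zipper (bZIP) proteins, most often a Fos protein with a Jun protein, that binds a short palindromic DNA site and its cyclic AMP response relative. Fos, Fosb, Jun, Junb and Atf3 are classical immediate early genes: MAP kinase signalling switches them on within minutes through factors already bound at their promoters, and their transcripts decay fast. In neutrophils and monocytes AP-1 acts downstream of Toll-like, cytokine and adhesion receptors, and handling of the cells is also known to switch on these genes.

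The 10 libraries of batch 1 held 827744 to 2965896 counts each, and the 9 of batch 2 held 14026193 to 45135933. Each PMN-MDSC library of batch 1 had a counterpart in batch 2: adult replicates 1, 2 and 3 went with 32, 33 and 34, and newborn replicates 2 and 3 with 37 and 38. Over 9088 genes the deviations of these 5 pairs from the mean of their group and batch correlated at 0.409 to 0.617. The 10 other cross-batch pairs of PMN-MDSC gave -0.447 to 0.182. Newborn PMN-MDSC has 2 libraries in batch 1, so their deviations mirror each other and each newborn value recurs with the opposite sign. Replicate 37 gave 0.409 with replicate 2 and -0.409 with replicate 3, and the ends of the second range are such values. The pairs were set from earlier results of these data, so these correlations are no independent test of them. The counterparts still differed by more than sampling noise, with a chi-square of 2.02 to 6.70 per degree of freedom where other library pairs of a group gave 6.03 to 128.6. Whether each pair came from the same cells was not tested. A second preparation of the same cells can also differ by more than counting noise. If the pairs share cells, the SDs and p-values over 6 adult and 5 newborn PMN-MDSC libraries count those cells more than once. The p-values are then too small. In the main fit all groups share the estimate of the spread, so the p-values of M-MDSC would then be affected as well. All libraries were kept, and each member's test between ages in PMN-MDSC is also given without the 5 batch 1 partners. The labels do not say whether replicates were different animals, and p-values therefore reflect the spread between libraries, which may be technical. Counts of Kdm5d, a gene of the Y chromosome, were 0 in all 9 adult libraries and 2 to 441 in the 10 newborn libraries, so age and the sex of the mice cannot be told apart. A list of 12 neutrophil genes summed to 10135 to 10844 CPM, a count scaled to library size, in adult PMN-MDSC and 851 to 1372 in adult M-MDSC, and 12 monocyte genes to 2301 to 2915 and 17594 to 25789 CPM, as labelled. In newborn PMN-MDSC the neutrophil genes summed to 94617 to 106086 CPM and the monocyte genes to 15135 to 20096 CPM. By the test between ages described below, 10 neutrophil genes were higher and 1 lower in newborn PMN-MDSC. Of the 12 monocyte genes 4 were higher and 7 lower (median log2 difference -1.33), so their higher sum does not stand for most of the list. In newborn M-MDSC these sums were 2917 to 13368 and 18793 to 28128 CPM.

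Promoter sequence is shown for 4 members that were lower in newborn PMN-MDSC. Each carries a cyclic AMP response element (CRE) or its core close to the start site. Fosb and Batf meet the same description and are not shown. The 250 bases before the RefSeq start sites (assembly GRCm38.p6) are printed 5′ to 3′ on the strand of the gene, with the CRE or its core in capitals. Fos lies on the plus strand (chr12:85473640-85473889), Junb on the minus strand (chr8:84978749-84978998), Atf3 on the minus strand (chr1:191183334-191183583) and Maff on the plus strand (chr15:79347270-79347519).
Fos: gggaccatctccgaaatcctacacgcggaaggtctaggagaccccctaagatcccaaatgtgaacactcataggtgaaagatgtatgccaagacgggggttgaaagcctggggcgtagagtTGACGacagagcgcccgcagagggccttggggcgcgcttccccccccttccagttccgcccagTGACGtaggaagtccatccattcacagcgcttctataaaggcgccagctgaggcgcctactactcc
Junb: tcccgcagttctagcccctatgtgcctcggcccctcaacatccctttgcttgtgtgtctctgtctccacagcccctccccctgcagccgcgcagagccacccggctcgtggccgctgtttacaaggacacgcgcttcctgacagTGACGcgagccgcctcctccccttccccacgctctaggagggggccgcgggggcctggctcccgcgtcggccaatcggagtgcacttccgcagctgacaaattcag
Atf3: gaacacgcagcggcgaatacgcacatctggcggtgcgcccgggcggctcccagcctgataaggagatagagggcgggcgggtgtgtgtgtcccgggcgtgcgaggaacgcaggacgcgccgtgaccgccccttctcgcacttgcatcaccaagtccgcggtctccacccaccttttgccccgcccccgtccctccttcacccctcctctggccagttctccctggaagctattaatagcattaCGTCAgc
Maff: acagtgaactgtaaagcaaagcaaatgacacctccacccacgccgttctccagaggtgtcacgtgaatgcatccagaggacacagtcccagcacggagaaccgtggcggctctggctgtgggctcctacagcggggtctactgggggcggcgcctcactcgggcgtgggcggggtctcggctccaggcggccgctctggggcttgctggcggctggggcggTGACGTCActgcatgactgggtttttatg
The motifs were searched on both strands in RefSeq windows of 250 bases before to 50 bases after each start site, 11 windows for the 9 members (3 for Maff, 1 for each other member) and 32851 in all. The full CRE, TGACGTCA, was in 1 member window, that of Maff printed above, and in 1.79% of all windows. Its core, TGACG, which lies within the full CRE, was in 7 of the 11 member windows, those of Fos, Fosb, Junb, Atf3, Batf and 2 of Maff. It was in 20.8% of all windows. The G and C content of these 7 windows ran from 49.7% (Batf) to 68.3% (Fosb), against a median of 52.7% over all windows. The 20.8% was not adjusted for this. In Fos the 2 cores began 129 and 66 bases before the start site, in Junb 106, in Atf3 7 and in the Maff window above 29. Those of Fosb and Batf began 60 and 98 bases before it. The pattern TGANTCA, with any base at N, takes in the AP-1 site but is wider than it. This pattern was in no member window and in 7.81% of all windows. The CArG box was likewise in none (1.63% of all windows). Only these letter patterns within these windows were searched. Variant sites, such as TGACATCA in the Jun window, and sites farther upstream were therefore not counted. TATAAA was in the Fos and Junb windows (13.6% of all) and CCAAT in those of Jun, Junb and Atf3 (37.4% of all). The windows of Fosl2, which did not pass the test between ages, and of Jund, which did, held none of these motifs. The Jund window lies upstream of the start in the GENCODE M21 annotation.

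In newborn PMN-MDSC 8 of the 9 members were lower than in adult PMN-MDSC and none was higher, by edgeR's quasi-likelihood test at a Benjamini-Hochberg adjusted p under 0.05. Of all 12943 genes 20.5% were called lower and 27.2% higher in that comparison. The 8 fell by between 0.88 (Batf) and 4.62 (Atf3) on the log2 scale, and the median over the 9 members was -1.51 against -0.05 over all genes. Fosl2 was the exception. Without the 5 batch 1 partners 7 members were lower. In bulk RNA, fewer cells of a type and less RNA per cell cannot be told apart. CPM values below are scaled by the trimmed mean of M-values (TMM), and fold changes come from the model with batch as a term.

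**Figure D1:**
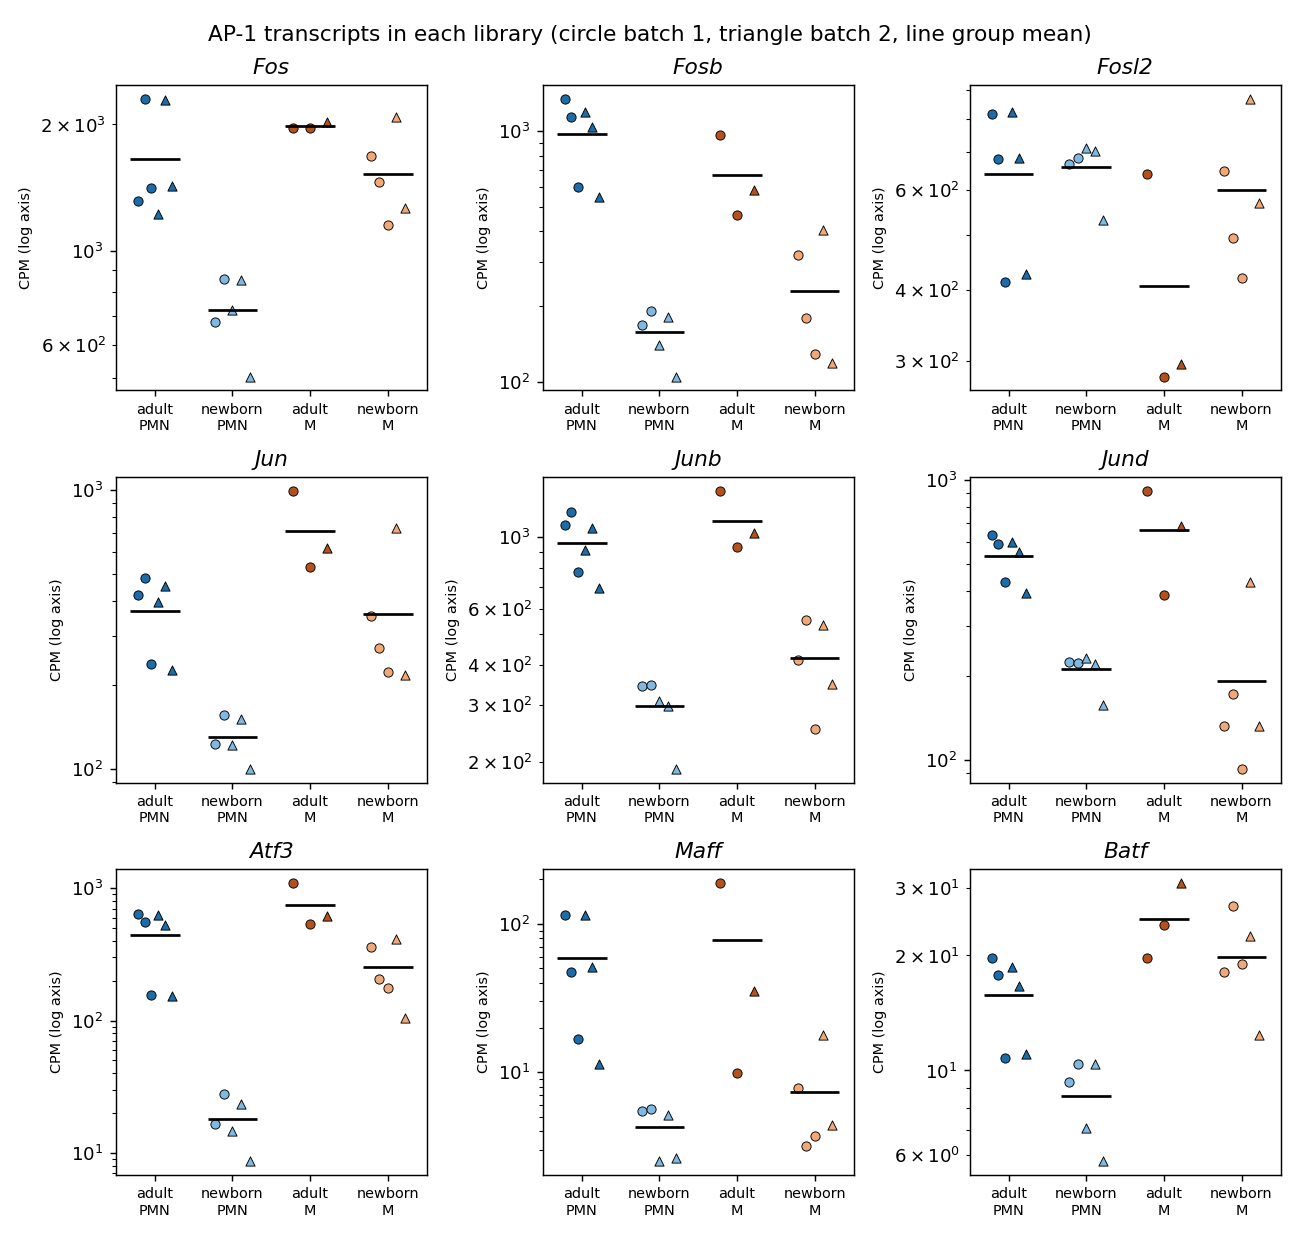
CPM of each AP-1 transcript (log axis) in the 19 libraries, by group, with circles for batch 1, triangles for batch 2 and a line at the group mean. Adult and newborn PMN-MDSC do not overlap for 8 genes, and the share of all genes without overlap was not counted. Fosl2 overlaps, with newborn libraries from 530.1 to 711 CPM inside the adult range of 413 to 822.

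Among the Fos proteins, which cannot pair with themselves and need a Jun partner, Fos (ENSMUSG00000021250, chr12:85473890-85477273) had the highest level per length. Adult PMN-MDSC held 1225 CPM at the lowest, 1419 at the median and 2301 at the highest. The newborn PMN-MDSC libraries held 679.6, 858, 723, 853 and 504 CPM in replicates 2, 3, 37, 38 and 39. Every newborn library was below every adult one, and Fos fell by 1.20 ± 0.21 (SE) on the log2 scale (adjusted p = 8.40e-05, edgeR; 0.00529 without the batch 1 partners). In the adult group replicates 2 and 33, a matched pair, stood apart at the top.

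Fosb (ENSMUSG00000003545, chr7:19302696-19310051), a Fos relative whose short splice form ΔFosB is long-lived in neurons, showed the wider gap. Its adult PMN-MDSC values were 548, 1092 and 1349 CPM at the lowest, median and highest. Newborn PMN-MDSC held 168, 192, 140.1, 181 and 105 CPM in the same order of replicates. The groups were far apart, and Fosb fell by 2.64 ± 0.35 on the log2 scale, 6.21-fold (adjusted p = 5.02e-06, edgeR; 0.00131 without the batch 1 partners). Isoforms of Fosb were not separated in the table.

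Fosl2 (Fra-2; ENSMUSG00000029135, chr5:32135801-32157842), a Fos protein without the strong transactivation domain of Fos, did not follow the others. Its adult PMN-MDSC levels were 413, 681 and 822 CPM at the lowest, median and highest, and the newborn libraries held 668, 684, 711, 704 and 530.1 CPM. The groups overlapped throughout. The log2 difference was 0.04 ± 0.24 (adjusted p = 0.902, edgeR; 0.937 without the batch 1 partners), with a 95% interval of -0.47 to 0.55, which does not reach the drop of any member that passed. Its sign turned to -0.14 with DESeq2 size factors and to -0.19 with upper-quartile scaling, scalings that shifted the all-gene median by -0.17 and -0.24.

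The 3 Jun proteins, which pair with themselves, with Fos proteins and with ATF proteins, moved by similar amounts. Jun (ENSMUSG00000052684, chr4:95049034-95052222), the target of the JNK kinases, held 226, 409 and 482 CPM at the lowest, median and highest in adult PMN-MDSC. Newborn PMN-MDSC held 123, 157, 122, 152 and 100.3 CPM. Adult replicates 3 and 34, again a matched pair, were the lowest adult libraries, yet all newborn libraries lay below them. Jun fell by 1.51 ± 0.31 on the log2 scale (adjusted p = 5.23e-04, edgeR; 0.0221 without the batch 1 partners).

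Junb (ENSMUSG00000052837, chr8:84974484-84978718) is a Jun protein that restrains proliferation in the granulocytic lineage. Its adult PMN-MDSC levels were 694, 993 and 1197 CPM at the lowest, median and highest, against 344, 347, 309, 297 and 190.2 CPM in the newborn libraries. No newborn library reached the lowest adult one. Junb fell by 1.68 ± 0.21 on the log2 scale (adjusted p = 3.04e-06, edgeR; 0.00103 without the batch 1 partners). Junb overlaps Prdx2 on the other strand by 351 bases, and the strand setting of the counting is not given in the sources used here, so reads from the overlap cannot be told apart. Prdx2 itself averaged 39.6 CPM in the adult libraries of PMN-MDSC and 74.0 CPM in the newborn ones.

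Jund (ENSMUSG00000071076, chr8:70698949-70700616), the Jun gene that most tissues express at a steady level, is not a typical immediate early gene. Adult PMN-MDSC held 395, 570.1 and 636 CPM at the lowest, median and highest. Newborn PMN-MDSC held 224, 223, 231, 221 and 157 CPM. The newborn libraries lay close together apart from replicate 39, and Jund fell by 1.36 ± 0.31 on the log2 scale (adjusted p = 0.00141, edgeR; 0.0408 without the batch 1 partners). Jun and Jund each overlap an antisense gene, Junos by 689 and Gm11175 by 919 bases. These antisense genes did not exceed 14.7 and 1.25 CPM in any library.

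Atf3 (ENSMUSG00000026628, chr1:191170296-191218039), a stress-induced ATF protein that represses inflammatory cytokine genes in macrophages, differed most. Its adult PMN-MDSC levels were 152, 542 and 639 CPM at the lowest, median and highest. The newborn libraries held 16.4, 27.7, 14.5, 23.3 and 8.70 CPM. Even the highest newborn library was far below the lowest adult pair, replicates 3 and 34. Atf3 fell by 4.62 ± 0.51 on the log2 scale, 24.7-fold (adjusted p = 4.79e-07, edgeR), and by 4.77 ± 0.66 without the batch 1 partners (adjusted p = 1.29e-04, edgeR).

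Maff (ENSMUSG00000042622, chr15:79346621-79359076), a small Maf protein that lacks a transactivation domain and pairs with CNC-type bZIP factors, varied most among the 9 members in the adult libraries. In adult PMN-MDSC it ranged from 11.3 CPM over a median of 49.2 to 114 CPM, and in newborn PMN-MDSC it stood at 5.47, 5.62, 2.53, 5.16 and 2.67 CPM. The groups did not overlap, although the adult libraries alone spanned 10.0-fold. Maff fell by 3.86 ± 0.78 on the log2 scale (adjusted p = 4.69e-04, edgeR; 0.0129 without the batch 1 partners). The call was lost in batch 1 alone (adjusted p = 0.0971, edgeR) and with matched libraries as a random block (adjusted p = 0.0546, limma-voom).

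Batf (ENSMUSG00000034266, chr12:85686669-85709087), a bZIP protein that pairs with Jun proteins and cooperates with IRF4 and IRF8, had low counts. Adult PMN-MDSC held 10.8, 17.2 and 19.7 CPM at the lowest, median and highest, and newborn PMN-MDSC 9.30, 10.4, 7.07, 10.4 and 5.80 CPM. The highest newborn libraries lay just under the lowest adult one. Batf fell by 0.88 ± 0.26 on the log2 scale (adjusted p = 0.00938, edgeR). That call was lost in either batch alone (adjusted p = 0.192 and 0.0662, edgeR), without the batch 1 partners (0.0788, edgeR) and with the matched block (0.162, limma-voom).

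In M-MDSC 6 of the 9 members were lower in newborn than in adult cells and none was higher, where 14.4% of all genes were called lower and 15.9% higher. The 6 were Fosb, Jun, Junb, Jund, Atf3 and Maff, and the median over the 9 members was -1.39 against 0.01 over all genes. Fos, Fosl2 and Batf did not pass. This comparison rests on 3 adult libraries, and adult replicate 1 was the highest of the 3 for all members except Fos and Batf. Without it Jun, Atf3 and Maff were no longer called (adjusted p = 0.185, 0.122 and 0.166, edgeR), and Fosl2 was called higher in newborns by 1.03 on the log2 scale (adjusted p = 0.0171, edgeR). Only 1 of the adult M-MDSC libraries was in batch 2, so the spread used within that batch comes from the other groups, and 2 members were called there, Junb lower and Fosl2 higher. In batch 1 alone 6 were called lower.

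**Figure D2:**
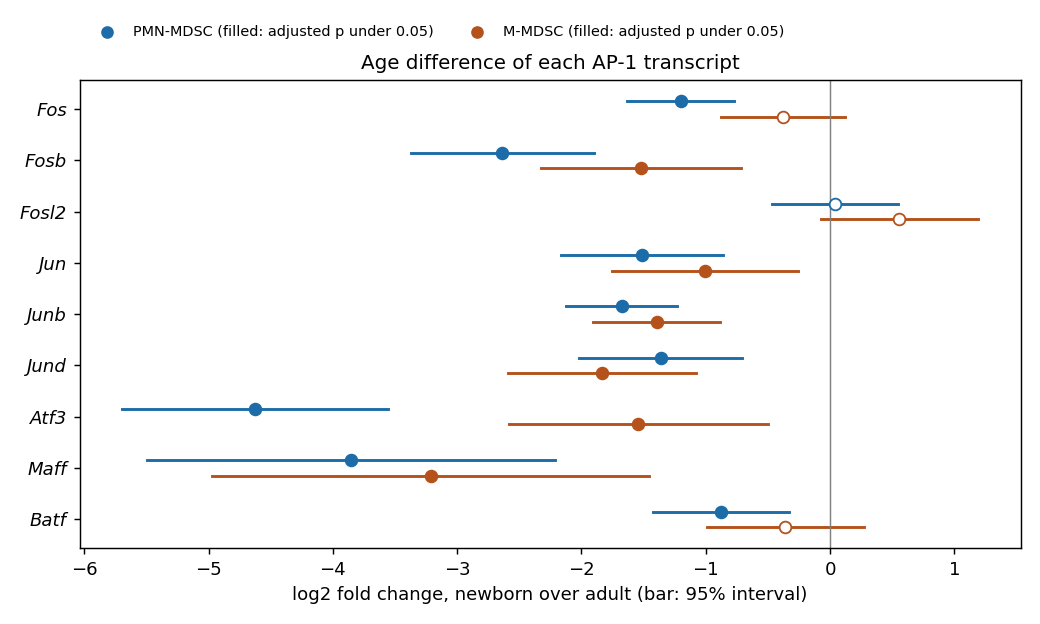
log2 fold change of newborn over adult cells for each AP-1 transcript, with its 95% interval, in PMN-MDSC (blue) and M-MDSC (brown), filled where the adjusted p was under 0.05. Atf3 has intervals that do not meet between the cell types, -5.69 to -3.55 in PMN-MDSC and -2.58 to -0.50 in M-MDSC, while Fosl2 sits at or above 0 in both.

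Fos in adult M-MDSC stood at 1966, 1962 and 2033 CPM in replicates 1, 3 and 28. Newborn M-MDSC held 1686, 1457, 1152, 2083 and 1265 CPM in replicates 1, 2, 3, 77 and 79. The adult libraries were nearly equal and the newborn ones lay mostly below them, with replicate 77 the highest M-MDSC library. The log2 difference was -0.38 ± 0.24 (adjusted p = 0.251, edgeR; 95% interval -0.88 to 0.12).

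Fosb in adult M-MDSC measured 964, 462 and 583 CPM, and in newborn M-MDSC 321, 179, 129, 402 and 119 CPM. No newborn library reached the lowest adult one, and Fosb fell by 1.52 ± 0.38 on the log2 scale (adjusted p = 0.00554, edgeR). Fosl2 ran the other way, at 640.0, 282 and 297 CPM in adult and 648, 494, 419, 867 and 569 CPM in newborn M-MDSC. Adult replicate 1 lay among the newborn values and the other adult libraries below them, and the difference of 0.56 ± 0.30 did not pass (adjusted p = 0.175, edgeR).

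Junb separated the ages in M-MDSC most clearly among the Jun genes. Adult M-MDSC held 1395, 935 and 1034 CPM, against 414, 555, 252, 535 and 349 CPM in newborn M-MDSC. With no overlap, Junb fell by 1.39 ± 0.24 on the log2 scale (adjusted p = 2.68e-04, edgeR), and its call held under every alternative run. Jun measured 992, 528 and 619 CPM in adult and 353, 271, 223, 731 and 218 CPM in newborn M-MDSC. Replicate 77 lay above the adult replicates 3 and 28, so the groups overlapped. The change of -1.01 ± 0.36 in Jun was close to the threshold (adjusted p = 0.0393, edgeR). Its call was lost in 10 of 33 alternatives, among them leaving out the batch 1 partners (adjusted p = 0.0530, edgeR). Jund measured 914, 389.8 and 686 CPM in adult and 133, 172, 93.1, 431 and 133 CPM in newborn M-MDSC. Here too only newborn replicate 77 reached into the adult range, above adult replicate 3. Jund fell by 1.83 ± 0.36 on the log2 scale (adjusted p = 7.98e-04, edgeR).

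Atf3 in adult M-MDSC stood at 1092, 534 and 618 CPM, and in newborn M-MDSC at 358, 207, 177, 414 and 104 CPM. The groups did not overlap, and Atf3 fell by 1.54 ± 0.50 on the log2 scale, 2.91-fold (adjusted p = 0.0247, edgeR). That call was lost in 8 of 33 alternatives, among them fitting only the compared groups (adjusted p = 0.0570, edgeR), quality weights (0.115, limma-voom) and no expression filter (0.0724, edgeR). It was also lost without newborn replicate 2, 3 or 79 (adjusted p = 0.0534, 0.0579 and 0.0511, edgeR). For Maff the adult M-MDSC libraries ranged 18.8-fold, at 188, 9.96 and 35.5 CPM, and the newborn ones held 7.89, 3.21, 3.71, 17.9 and 4.43 CPM. Newborn replicate 77 exceeded adult replicate 3, and the change of -3.21 ± 0.84 (adjusted p = 0.00700, edgeR) shrank to -1.52 without adult replicate 1. Batf, at 19.7, 24.1 and 30.9 CPM in adult and 18.1, 26.9, 18.99, 22.5 and 12.4 CPM in newborn M-MDSC, overlapped between ages (-0.36 ± 0.30, adjusted p = 0.402, edgeR).

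Whether the age difference itself differed between the cell types was tested as an interaction. Only Atf3 passed among the 9 members, where 18.2% of all genes were called. Its age difference was smaller in M-MDSC than in PMN-MDSC by 3.08 ± 0.70 on the log2 scale (adjusted p = 0.00458, edgeR). The estimate was 2.63 in batch 1 alone (adjusted p = 0.129, edgeR) and 3.52 in batch 2 alone (adjusted p = 0.0790, edgeR), neither called, and batch 2 takes the spread of its 1 adult M-MDSC library from the other groups. Without the batch 1 partners it was 3.16 ± 0.79 (adjusted p = 0.0306, edgeR). For Fos the interaction was 0.82 ± 0.32 (adjusted p = 0.0814, edgeR), so a difference between the cell types was not called for Fos, which was lower in newborn PMN-MDSC and did not pass in M-MDSC. It was called with upper-quartile scaling (0.99, adjusted p = 0.0360, edgeR) and by DESeq2 (0.91, adjusted p = 0.0267). The intervals of the other 7 members were wide, from -0.39 to 0.96 for Junb to -1.67 to 2.95 for Maff. That of Fosb, 0.03 to 2.19, lay just above 0, and its interaction of 1.11 ± 0.51 was not called (adjusted p = 0.148, edgeR).

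The cell types were also compared at each age, and whether these differences differed between the ages is the same interaction, which only Atf3 passed (for Jun adjusted p = 0.515 and for Batf 0.413, edgeR). In adult cells Jun alone was called, higher in M-MDSC by 0.96 ± 0.34 on the log2 scale (adjusted p = 0.0406, edgeR), where 16.7% of all genes were called higher and 12.5% lower. The 3 adult M-MDSC libraries lay above all 6 adult PMN-MDSC libraries for Jun, but the call was lost in 20 of 33 alternatives, among them leaving out adult M-MDSC replicate 1 (0.57, adjusted p = 0.241, edgeR) and the batch 1 partners (adjusted p = 0.111, edgeR). Without that library Fosl2 was called lower in adult M-MDSC (-1.20, adjusted p = 0.00514, edgeR). In newborn cells 4 members were higher in M-MDSC and none lower, where 18.7% of all genes were called higher and 23.3% lower. These were Fos (1.08 ± 0.21, adjusted p = 4.40e-04), Jun (1.47 ± 0.32, adjusted p = 0.00109), Atf3 (3.80 ± 0.50, adjusted p = 6.73e-06) and Batf (1.19 ± 0.27, adjusted p = 0.00179), all by edgeR. All 5 newborn M-MDSC libraries lay above all 5 newborn PMN-MDSC libraries for these 4 genes, and the share of all genes that separate in this way was not counted. All 4 calls held without the batch 1 partners. The Batf call was lost in either batch alone (adjusted p = 0.0518 and 0.0601, edgeR) and with matched libraries as a random block (adjusted p = 0.0578, limma-voom). These comparisons share libraries with the age comparisons above.

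To compare levels between genes, CPM was divided by the exonic length in GENCODE M21. On this scale of CPM per kb Fos was the first of the 9 members in all 4 groups and Junb the second. Jund came next in adult PMN-MDSC, newborn PMN-MDSC and adult M-MDSC, and Atf3 in newborn M-MDSC. For PMN-MDSC, Fos averaged 706 ± 210.4 (SD, n = 6) CPM per kb in adults and 308 ± 62.0 (n = 5) in newborns. For M-MDSC it averaged 845 ± 17.0 (n = 3) in adults and 649.98 ± 157 (n = 5) in newborns. Among all genes with a value it ranked 32, 168, 29 and 65 in these 4 groups. Maff and Batf were at the bottom of the family, with Maff at 1.65 ± 0.60 CPM per kb in newborn PMN-MDSC.

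**Figure D3:**
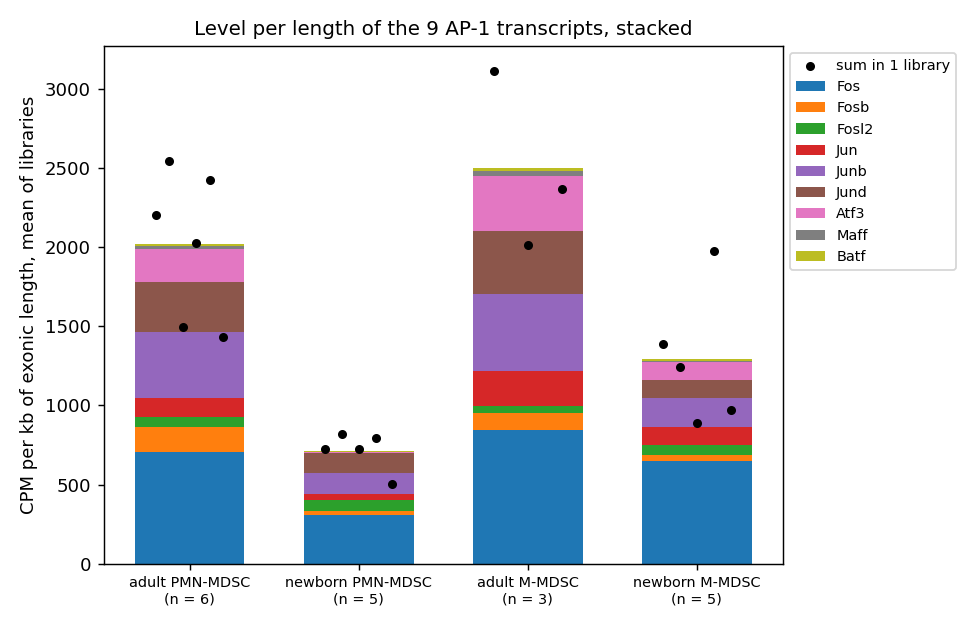
Stacked mean levels of the 9 AP-1 transcripts in CPM per kb of exonic length, by group, with a black point for the sum in each library. The sum averages 2021 in adult PMN-MDSC and 714 in newborn PMN-MDSC, and Fosl2 keeps its height while the segments around it shrink.

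The summed level of the 9 transcripts was 2021 ± 467 CPM per kb (SD, n = 6) in adult PMN-MDSC and 714 ± 125 (n = 5) in newborn PMN-MDSC. It was 2497 ± 563 (n = 3) in adult and 1294 ± 431 (n = 5) in newborn M-MDSC. The adult and newborn PMN-MDSC sums did not overlap, at 1430.0 to 2543 and 503 to 822 CPM per kb, and neither did those of M-MDSC, at 2011 to 3115 and 886 to 1975. Without the batch 1 partners the PMN-MDSC sums averaged 1961 ± 501 (n = 3) in adults and 674 ± 152 (n = 3) in newborns. The make-up of the sum differed as well. Fos made up 35.3 ± 7.69% in adult and 43.0 ± 2.19% in newborn PMN-MDSC, and 34.9 ± 7.45% in adult and 51.4 ± 4.33% in newborn M-MDSC. Fosl2 went from 3.27 ± 0.59% to 9.66 ± 0.88% in PMN-MDSC and from 1.62 ± 0.44% to 4.88 ± 0.72% in M-MDSC. Atf3 went from 9.65 ± 4.05% to 1.14 ± 0.31% in PMN-MDSC and from 13.6 ± 2.34% to 8.73 ± 2.60% in M-MDSC. These shares are descriptions, and a share moves whenever another member does.

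**Figure D4:**
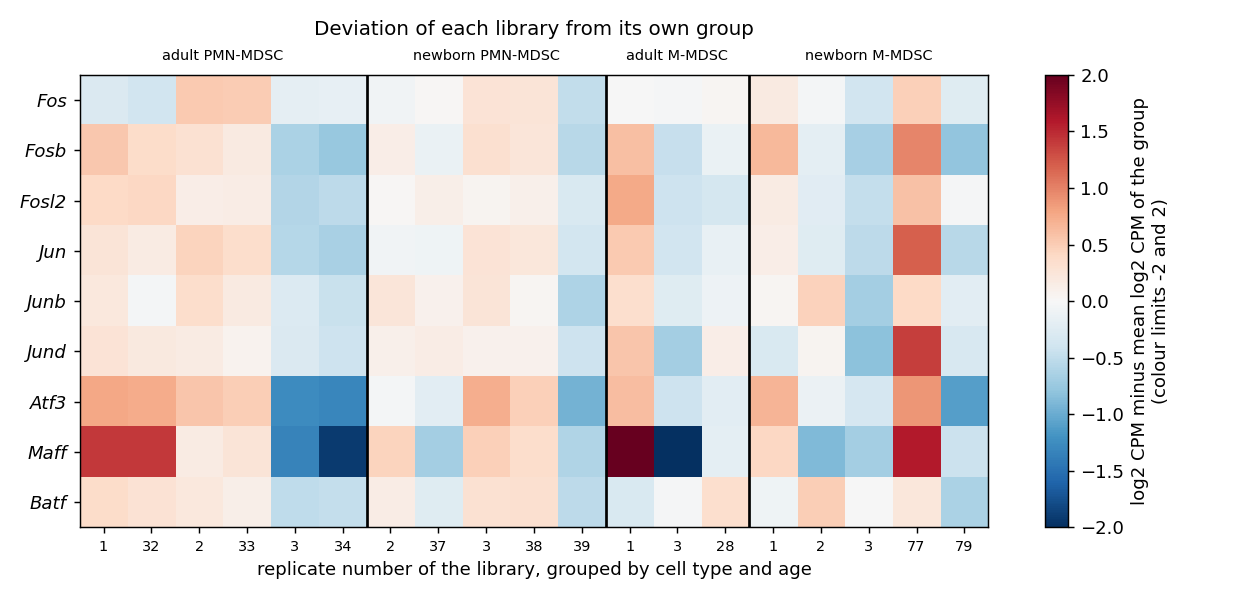
Deviation of each library from the mean log2 CPM of its own group, for the 9 members (rows) in the 19 libraries (columns, matched PMN-MDSC libraries side by side), with colours limited to -2 and 2. Adult PMN-MDSC replicates 3 and 34 lie below their group's mean for every member, though replicates 1 and 32 are lower still for Fos. Newborn M-MDSC replicate 77 lies above its group's mean for every member.

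Within groups many members moved together from library to library, but Fos did not follow the others in adult PMN-MDSC. There replicates 1 and 32 were the lowest for Fos (1315 and 1225 CPM). The same libraries were the highest for Fosb (1349 and 1200 CPM) and for Atf3 (639 and 627 CPM). Adult PMN-MDSC replicates 3 and 34 were below their group's mean log2 level for all 9 members, and newborn PMN-MDSC replicate 39 likewise. Replicates 3 and 34 also had the lowest sums of the adult PMN-MDSC group for the other immediate early genes (9722 and 9693 CPM, others 15880 to 16424) and for the heat shock genes (2793 and 2880, others 3247 to 3544). Their B cell sums were the highest of the group (4418 and 4452, others 2811 to 3225), and the part of these in the result was not tested. Newborn M-MDSC replicate 77 was above its group's mean for all 9. Between matched libraries the median absolute log2 ratio over the 9 members was 0.05 to 0.15, against 0.16 to 0.90 for the other cross-batch PMN-MDSC pairs.

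Over the 19 libraries, with batch removed, the genes most like each member were found by Pearson's r of log2 CPM among 8528 genes, and the 4 groups and their libraries are common to every such value. Fosb was most like Per1, a clock gene that cyclic AMP induces (r = 0.987), then Tgif2 and the MAP kinase phosphatase Dusp5. Junb was most like Ier5 (0.974), Ppp1r15a, which dephosphorylates eIF2α, and the phosphatase Dusp2, and Jund also went with Ier5 (0.942). Jun went with Klf9 (0.948) and the orphan nuclear receptor Nr4a1 (0.944). Fos went with the mRNA decay factor Zfp36l2 (0.909), Atf3 with Xaf1, Il10ra and Pim3 (0.944 to 0.942), and Maff with Itpkc, Bcl2l11 and the inflammasome sensor Nlrp3 (0.964 to 0.960). Batf went with Tnfrsf1b (0.904) and Fosl2 with Ccng2 (0.867), the lowest of these leading values.

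**Figure D5:**
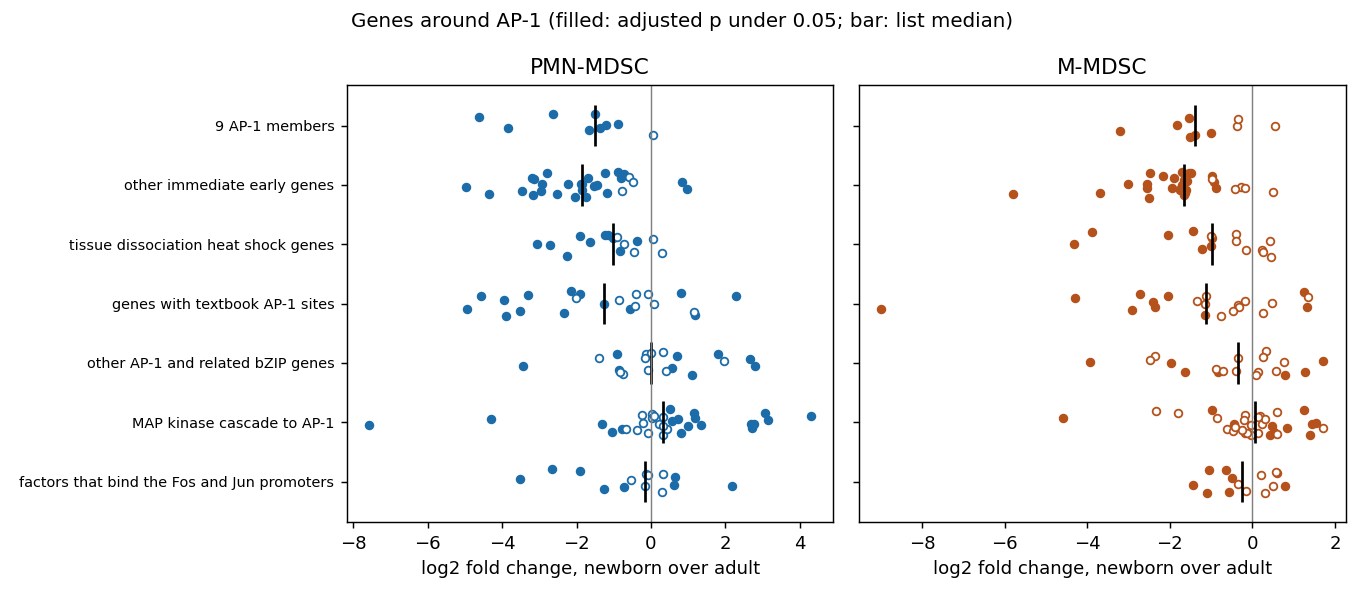
log2 fold change of newborn over adult cells for the 9 members and for the tested genes of 6 lists around AP-1, in PMN-MDSC (left) and M-MDSC (right), filled where the adjusted p was under 0.05, with a bar at the list median. The other immediate early genes centre on -1.85 and -1.66, while the MAP kinase genes centre on 0.32 and 0.06.

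The genes around AP-1 were read from 6 lists chosen with earlier results of these data known, beside the shares of all genes called given above (27.2% higher and 20.5% lower in newborn PMN-MDSC, 15.9% and 14.4% in newborn M-MDSC). Of the other immediate early genes 24 of 29 tested were lower in newborn PMN-MDSC and 2 were higher (median -1.85), and 24 were lower and none higher in newborn M-MDSC (median -1.66). The phosphatase Dusp2 fell by 2.96 ± 0.20 in PMN-MDSC and fell by 2.56 ± 0.22 in M-MDSC on the log2 scale (adjusted p = 1.08e-09 and 1.22e-07, edgeR). Zfp36l1, an mRNA decay factor, fell by 3.14 in PMN-MDSC and fell by 2.56 in M-MDSC, and Myc fell by 2.79 in PMN-MDSC, while Klf2 fell by 1.94 in M-MDSC. The 2 that rose in PMN-MDSC were Ier2 (0.96 ± 0.22) and the pseudokinase Trib1 (0.83 ± 0.29).

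Genes with textbook AP-1 sites were more mixed. In PMN-MDSC 11 of 21 tested were lower and 3 higher (median -1.27), and in M-MDSC 8 were lower and 2 higher (median -1.12). The cytokine Il1b fell by 3.90 ± 0.42 in PMN-MDSC and fell by 2.41 ± 0.46 in M-MDSC (adjusted p = 3.93e-07 and 6.67e-04, edgeR), and the adhesion molecule Icam1 fell by 2.15 in PMN-MDSC and fell by 2.04 in M-MDSC. The cyclooxygenase Ptgs2 fell by 3.95 in PMN-MDSC, and the chemokine Cxcl2 fell by 4.29 in M-MDSC. The gelatinase Mmp9 rose by 2.29 ± 0.26 in PMN-MDSC and by 1.32 ± 0.34 in M-MDSC. Mmp9 is also among the 12 neutrophil genes. Of these 10 were higher and 1 lower in newborn PMN-MDSC, and 8 higher and none lower in newborn M-MDSC.

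Upstream, the MAP kinase genes did not follow the members. In newborn PMN-MDSC 14 of 32 tested were higher and 5 lower (median 0.32), and in newborn M-MDSC 8 were higher and 3 lower (median 0.06). The kinase Rps6ka1, which phosphorylates Fos, rose by 3.15 ± 0.20 in PMN-MDSC and by 1.44 ± 0.24 in M-MDSC, and Mapkapk3 rose by 2.70 and 1.397. The JNK gene Mapk8 fell by 1.32 ± 0.27 in PMN-MDSC and fell by 0.99 ± 0.32 in M-MDSC, and the p38 gene Mapk11 fell by 4.29 and fell by 4.59. Of 14 factors that bind the Fos and Jun promoters 3 were higher and 5 lower in newborn PMN-MDSC, and 2 higher and 6 lower in newborn M-MDSC. Srf, the serum response factor, rose by 0.61 ± 0.11 and 0.59 ± 0.14, and its coactivator Mkl1 rose by 2.17 ± 0.21 in PMN-MDSC. Mef2d fell by 1.91 ± 0.23 in PMN-MDSC and fell by 1.04 ± 0.26 in M-MDSC, and Mef2c fell by 3.52 ± 0.29 in PMN-MDSC.

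The other bZIP genes were called in shares near those of all genes. In newborn PMN-MDSC 6 of 19 tested were higher and 3 lower (median 0.01), and in newborn M-MDSC 3 were higher and 4 lower (median -0.35). Bach2, a repressor known best from lymphocytes, fell by 3.45 ± 0.22 in PMN-MDSC and fell by 3.94 ± 0.25 in M-MDSC. Nfe2, a partner of the small Maf proteins, rose by 2.80 ± 0.23 and 1.28 ± 0.28, and the small Maf gene Mafg rose by 1.80 ± 0.24 in PMN-MDSC, where Maff fell.

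Markers of handling and of other cells also differed between the ages, some lower in newborns and some higher, and their part in the result was not tested. Of 15 tested heat shock genes known to respond to tissue dissociation 10 were lower in newborn PMN-MDSC and 7 in newborn M-MDSC, and none was higher. The summed level of the list (16 genes with Hspb1, not tested) was 2793 to 3544 CPM in adult PMN-MDSC and 1630.0 to 2046 in newborn PMN-MDSC, with Hspb1 at 0 in the latter. In M-MDSC it was 3185 to 4802 CPM in adult and 2995 to 3680 in newborn libraries, with Hspb1 at 0 in the former. The chaperones Hspa1a fell by 4.31 and Hspa1b fell by 3.89 in newborn M-MDSC, and Hsph1 fell by 3.05 in newborn PMN-MDSC. In newborn cells 7 of the 15 were higher in M-MDSC than in PMN-MDSC and 1 lower, where 4 AP-1 members were higher and none lower. In that comparison 4 of 29 other immediate early genes were higher and 8 lower. Of 21 genes with textbook AP-1 sites 3 were higher and 8 lower, and of all genes 18.7% were higher and 23.3% lower.

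All 10 B cell genes were lower in newborns in both cell types. For PMN-MDSC their sum was 2811 to 4452 CPM in adults and 339 to 543 in newborns, for M-MDSC 598 to 1563 in adults and 71.8 to 150.4 in newborns, and none of the 10 was at 0 in any group. Of 11 T cell genes 2 were lower in newborn PMN-MDSC and 11 in newborn M-MDSC, with sums of 79.5 to 150.2, 48.0 to 74.96, 107 to 376 and 12.9 to 41.0 CPM in the same order of groups. Of 9 macrophage genes 4 were lower in newborn PMN-MDSC and 7 in newborn M-MDSC, with sums of 1461 to 3240, 1422 to 1827, 604 to 836 and 378 to 482 CPM. Of 9 erythroid genes 8 were higher in newborn PMN-MDSC and none was called in M-MDSC, with sums of 97.6 to 434, 2954 to 5449, 20.3 to 499.7 and 0.98 to 2841 CPM, and Klf1 was at 0 in adult M-MDSC.

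Of 8 plasma cell genes 7 were lower in newborns in both cell types. For PMN-MDSC they summed to 2412 to 3741 CPM in adults and 547 to 747 in newborns, for M-MDSC to 1107 to 2673 in adults and 349 to 527 in newborns, with none at 0. Of 6 eosinophil genes 4 were higher in newborn PMN-MDSC, and 4 were higher and 1 lower in newborn M-MDSC. For PMN-MDSC they summed to 49.6 to 107 CPM in adults and 287 to 763 in newborns, for M-MDSC to 2.19 to 17.0 in adults and 35.6 to 180.3 in newborns, and Ear1, Ear6 and Epx were at 0 in both adult groups.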

How the data were processed

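RNA sequencing of 19 spleen MDSC libraries was analysed from 1 deposited table of estimated counts per gene, all whole numbers. The submitters' processing notes name RSEM 1.2.3, DESeq2 and mm10 without roles; per the labels, libraries came from a total RNA kit and 50 base single-end reads. No aligner, annotation or strand setting was given in the sources used here. The counts were fitted with edgeR 4.0.16 (R 4.3.3; quasi-likelihood, robust, TMM, filterByExpr by group) with terms for group and batch over all 19 libraries, which left 14 residual degrees of freedom. Benjamini-Hochberg adjustment ran over all 12943 genes tested, with calls at 0.05. SE is the log2 fold change over the root of F. The fit was tested on simulated counts for the age comparison in PMN-MDSC alone. These were drawn independently for each library, without a batch effect or matched pairs, so the test cannot show how matched pairs change the p-values. Alternatives used DESeq2 1.42.0 and limma 3.58.1. Levels per kb, loci and overlaps used GENCODE M21 (GRCm38), which held 96.6% of the table's IDs. Likeness was computed on log2 CPM (prior count 2) over genes of at least 10 CPM on average. Of each list up to 3 called genes per direction, by smallest adjusted p and at least 10 CPM in 1 group, could be named for each age comparison. The members and lists were chosen with earlier results of these data known. Whether replicate numbers shared between groups pair the libraries was not settled, and the main fit did not pair them.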

Additional observations from a re-analysis of the deposited data

Results flagged for a closer look

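In 4 groups of libraries 1 value stood farther from the others than the spread of the rest allows by Dixon's test, of 27 groups tested, and chance flags about 1 in 20 groups. Newborn PMN-MDSC replicate 39 was the low one for Fosl2 (530.1 CPM) and for Jund (157 CPM). Newborn M-MDSC replicate 77 was the high one for Jun (731 CPM) and for Jund (431 CPM). Without replicate 77 Jund was lower in newborn M-MDSC than in newborn PMN-MDSC (-0.69, adjusted p = 0.0260, edgeR), and its interaction between age and cell type was called (-0.995, adjusted p = 0.0403, edgeR).

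The age difference of Atf3 differed between the cell types, by 3.08 on the log2 scale in the test of the difference itself (adjusted p = 0.00458, edgeR).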

How the results depend on the processing

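Each result was recomputed under 32 or 33 alternatives. The recounts take calls in either direction. The count of 8 members lower in newborn PMN-MDSC stayed between 6 and 8. That of 4 members higher in newborn M-MDSC than in newborn PMN-MDSC stayed between 3 and 5, with Jund called lower among them with quality weights and without newborn M-MDSC replicate 77. In M-MDSC the count of 6 went to 2 with only the compared groups, and ran from 4 to 6 when each library was left out. Without adult M-MDSC replicate 1 the calls were Fosb, Junb and Jund lower and Fosl2 higher. In batch 2 alone, with 1 adult M-MDSC library, the log2 difference was -1.18 for Junb and 1.32 for Fosl2. The interaction count of 1 went to 0 in each batch alone (3 members had an unadjusted p under 0.05 over all libraries), to 2 with upper-quartile scaling and with DESeq2, and ran from 1 to 2 when each library was left out, 2 without newborn M-MDSC replicate 77. For adult cell types the count of 1 went to 0 in batch 1 alone, without the batch 1 partners, with the matched block, with DESeq2 size factors, with quality weights and with no expression filter, to 2 with DESeq2, and ran from 0 to 1 when each library was left out. The cause of these shifts was not tested.

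Signs turned for these values, none of which had passed. For Fosl2 by age in PMN-MDSC the log2 difference was -0.14 with DESeq2 size factors, -0.19 with upper-quartile scaling and -0.14 with DESeq2, and ran from -0.069 to 0.14 when each library was left out. The interaction of Maff was -0.90 in batch 1 alone and ran from -0.082 to 2.40 when each library was left out, and that of Jund was 0.013 in batch 2 alone. In adult cell types Maff was -0.82 in batch 2 alone, -0.22 with the matched block and -0.78 with quality weights, where Junb was -0.016 and Jund -0.046. Left-out libraries gave -1.49 to 0.85 for Maff, -0.010 to 0.30 for Junb and -0.098 to 0.57 for Jund there, each lowest without adult M-MDSC replicate 1. In newborn cell types Maff was -0.13 in batch 1 alone, and Fosl2 was 0.021 in batch 2 alone and 0.019 with upper-quartile scaling. Jund was 0.33 in batch 2 alone, 0.14 without the batch 1 partners and 0.028 with upper-quartile scaling, and ran from -0.69 (called, without newborn M-MDSC replicate 77) to 0.0073 when each library was left out.

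Whether the replicate numbers 1 to 3 of batch 1 pair the libraries was not settled. Of 12 same-number pairs 6 had a correlation over 0.1 (-0.11 to 0.28), and pairs of unlike numbers were not computed. The highest values were those of adult PMN-MDSC with adult M-MDSC, 0.284 for number 1 and 0.276 for number 3. Adult M-MDSC has 2 libraries in batch 1, whose deviations mirror each other, so these values are not independent. With the replicate block the member counts were 8 and 5 by age in PMN-MDSC and M-MDSC, 1 for the interaction, and 1 and 4 for adult and newborn cell types. Fosl2 replaced Jun among adult cell types (-0.74, adjusted p = 0.0366, edgeR), Jun missed the threshold in M-MDSC by age (adjusted p = 0.0542, edgeR) and Maff in adult cell types was -0.24.

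Counts over all genes moved by over 1.5 times in these cases. By age in PMN-MDSC, 6178 became 3757 in batch 1 alone, 9523 with only the compared groups and 3757 without the partners. By age in M-MDSC, 3919 became 1270 with only the compared groups and 2308 with quality weights. The interaction's 2357 became 448 in batch 1, 4320 in batch 2 and 1018 without the partners. For adult cell types 3776 became 1390, 6383 and 2357 in the same fits, 1813 with quality weights and 2231 without adult M-MDSC replicate 28, and for newborn cell types 5439 became 3221 in batch 1. The share of PMN-MDSC calls that were higher, 57.0%, was 43.7% with upper-quartile scaling. Depth limits the low members: in batch 1 Maff rested on 17, 5 and 8 counts in newborn M-MDSC and on 10 and 13 in newborn PMN-MDSC, and Batf on 17 and 24 in newborn PMN-MDSC and 18 in each of adult PMN-MDSC replicates 1 and 3.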
